A study of Mus musculus with 8 samples.

Results

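The 39 interferon-stimulated antiviral genes described here were taken by name from a list of type I interferon targets, and all 39 were found among the 47493 genes of the expression table. Of these, 38 had a mean of at least 1 FPKM (the fragments of a gene scaled by its transcript length and by the mapped fragments of the library) over the 8 libraries and were tested, whereas Oas1g lay under this limit. The rule that picks the genes uses their names and no measured value, although the list was chosen with earlier results of these data known.

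RNA was sequenced from endogenous, Thy1.1-negative CD8+ T cells of the inguinal lymph nodes and spleen of 4 female C57BL/6 mice aged 6 to 8 weeks. All mice had received 200000 B16F10 melanoma cells on day 0, 300 mg/kg cyclophosphamide on day 3, 2000000 Thy1.1 Pmel-1 T cells with a transgenic gp100-specific receptor on day 5, 10000 IU IL-2 daily for 3 days, and, from day 10, weekly injections of 200 μg of the anti-CD4 antibody GK1.5 for 3 weeks. On day 25, the CD8+ T cells of each mouse were passed over a magnetic column with an IL-18Rα antibody, which gave an IL-18Rαhi-enriched fraction (n = 4) and a flow-through (FT) fraction (n = 4) of the same mice. Every mouse carried the tumor and the whole treatment, so that the comparison is between 2 cell fractions and not between treated and untreated animals. The fractions are magnetically enriched and not pure, and the flow-through still holds cells with some IL-18Rα. The libraries held an estimated 15000000 to 18000000 fragments each, read from the smallest steps between low FPKM values, and 11706 to 12288 genes at 1 FPKM or more. Il18r1, which encodes IL-18Rα, was at 30.6 ± 6.96 FPKM (SD, n = 4) in FT and 111 ± 3.87 FPKM in the enriched cells.

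Type I interferons bind the receptor chains IFNAR1 and IFNAR2, whose kinases JAK1 and TYK2 phosphorylate STAT proteins, STAT2 among them. Together with IRF9 these form the complex ISGF3, which binds the interferon-stimulated response element (ISRE) in promoters. The genes switched on in this way encode sensors of viral RNA and DNA, proteins that block viral replication at several steps, and regulators of the pathway itself, and some of them are also reached through interferon-γ or without any interferon. In T cells the same pathway is known to shape expansion, survival and differentiation.

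Promoters are shown first, because many genes of this kind are known to be controlled through the ISRE. RefSeq promoter windows (GRCm38.p6, from 250 bases before to 50 bases after a start site, 300 bases) matched 29 of the 39 genes. Ifi27l2a, Mx1 and Dhx58, which were higher in IL-18Rαhi-enriched cells, had no window. The core GAAANNGAAA, or TTTCNNTTTC on the other strand, stood in a window of 14 of the 29 genes (48.3%), compared with 3.99% of all 27025 genes with a window and 3.99% of the 8742 tested genes with a window. The 250 bases before the start are printed 5′ to 3′ on the strand of the gene, with the core in capitals, for Isg15 (chr4:156200819-156201068, minus strand) and Oas3 (chr5:120777660-120777909, minus strand), which were both higher in IL-18Rαhi-enriched cells, for Ifit1 (chr19:34640639-34640888, plus strand), which was called only when mice were matched, for Oas1a (chr5:120907526-120907775, minus strand), a neighbour of Oas3 that was not called, and for Oasl1 (chr5:114922990-114923239, plus strand), the gene that was lower.
Isg15: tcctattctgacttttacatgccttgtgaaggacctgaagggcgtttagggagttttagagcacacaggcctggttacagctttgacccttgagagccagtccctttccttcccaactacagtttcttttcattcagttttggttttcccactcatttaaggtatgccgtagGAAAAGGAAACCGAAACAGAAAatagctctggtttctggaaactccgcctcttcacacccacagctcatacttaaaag
Oas3: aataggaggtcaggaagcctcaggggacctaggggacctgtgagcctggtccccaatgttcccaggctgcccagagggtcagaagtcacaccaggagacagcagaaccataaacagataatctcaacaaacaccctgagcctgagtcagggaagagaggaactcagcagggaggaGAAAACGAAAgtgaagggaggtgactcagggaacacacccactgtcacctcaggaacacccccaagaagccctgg
Ifit1: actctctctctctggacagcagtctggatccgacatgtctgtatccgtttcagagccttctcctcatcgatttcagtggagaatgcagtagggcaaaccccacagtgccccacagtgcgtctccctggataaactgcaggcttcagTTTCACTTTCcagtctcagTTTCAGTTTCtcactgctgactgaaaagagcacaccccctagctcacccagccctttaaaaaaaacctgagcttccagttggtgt
Oas1a: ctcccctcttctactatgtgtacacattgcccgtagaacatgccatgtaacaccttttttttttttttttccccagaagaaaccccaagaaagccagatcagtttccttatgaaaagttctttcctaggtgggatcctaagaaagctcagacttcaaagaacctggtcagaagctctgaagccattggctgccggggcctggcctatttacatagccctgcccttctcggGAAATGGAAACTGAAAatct
Oasl1: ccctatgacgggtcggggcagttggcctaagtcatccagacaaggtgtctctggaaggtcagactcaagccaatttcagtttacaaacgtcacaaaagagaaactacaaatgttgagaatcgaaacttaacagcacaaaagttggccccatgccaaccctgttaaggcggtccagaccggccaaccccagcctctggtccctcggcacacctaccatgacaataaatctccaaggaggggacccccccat

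Isg15 carried 3 overlapping cores that began 78, 72 and 66 bases before the start. Oas3 carried 1 core, 75 bases before the start. Ifit1 carried 2 cores on the other strand, as did its neighbours Ifit3 and Ifit3b, and Oas1a and Oas1g carried 2 overlapping cores close to the start. No match to the core was found in the window of Oasl1 or of its neighbour Oasl2, which says only that these letters are not in this window. The element TTCNNNGAA, known as GAS from its role in the response to interferon-γ, reads the same on both strands and stood in 8 of the 29 genes (27.6%), compared with 9.55% of all genes with a window. In the window of Bst2 it overlapped the first of 2 ISRE cores. Among the genes with a window, the core was in 2 of the 2 called higher, 0 of the 1 called lower and 11 of the 25 tested and not called, so that a core in the window was also common among genes that did not pass the test.

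**Figure D1:**
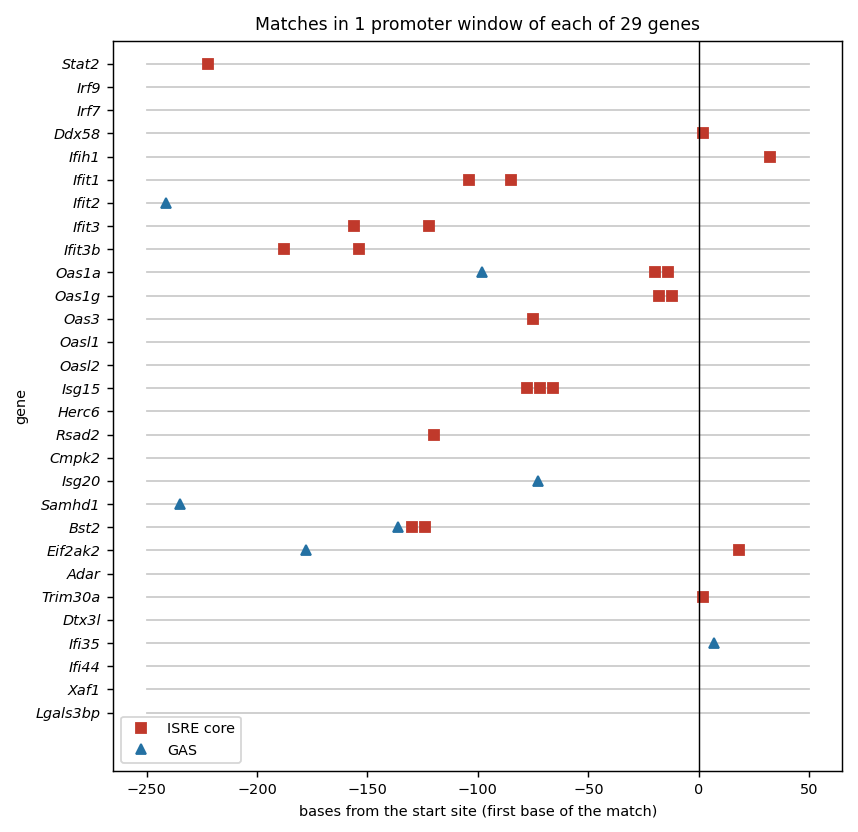
Positions of the ISRE core (red squares) and of GAS (blue triangles) in 1 RefSeq promoter window of each of 29 genes. The x axis gives bases from the start site to the first base of the match, and each gray line is 1 window. Where a gene has several windows, the window with the most ISRE cores is drawn, so that the GAS match of Adar in another window is not seen. ISRE cores stand in 14 genes, with 3 in Isg15.

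Of the 38 genes tested, 5 were higher in IL-18Rαhi-enriched cells (Ifi27l2a, Mx1, Oas3, Isg15 and Dhx58) and 1 was lower (Oasl1) at a Benjamini-Hochberg adjusted p under 0.05 in limma. These are 13.2% and 2.63% of the genes tested. Across all 12166 genes tested, 14.1% were called higher and 13.7% lower, so that the share called higher was near that of all genes and the share called lower was below it. Without adjustment, 7 of the 38 genes had a p under 0.05. The log2 fold change was above 0 for 27 of the 38 genes (11 when FPKM were scaled to T-cell identity genes), with a median of 0.15, compared with a median of -0.02 over all genes tested. That median was 0.046 without FT of mouse 1, and -0.16 when FPKM were scaled to T-cell identity genes, which moved the median of all genes to -0.30. The fold between the group means stayed under 1.5 in either direction for 33 of the 38 genes.

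When the mouse was entered as a block, since each mouse gave both fractions, 10 genes were called higher (26.3%) and 2 lower (5.26%). In that fit 22.2% of all genes were called higher and 22.7% lower. The genes added were Stat2, Ifit1, Ifit3b, Samhd1 and Parp14 among the higher and Isg20 among the lower. None of the 5 added to the higher was called in limma with the block when FPKM were also scaled to T-cell identity genes, where 2 genes, Ifi27l2a and Mx1, were called higher. With that scaling and the block, 5.47% of all genes tested were called higher. All 4 libraries of 1 fraction lay above all 4 of the other for 5 genes higher in the enriched cells and 1 gene higher in FT, and over all genes tested such separation held for 16.4% and 15.9%. Within the mice, the median difference of the 38 genes was 0.28 in mouse 1, 0.12 in mouse 2, 0.19 in mouse 3 and 0.10 in mouse 4 on the log2 scale.

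**Figure D2:**
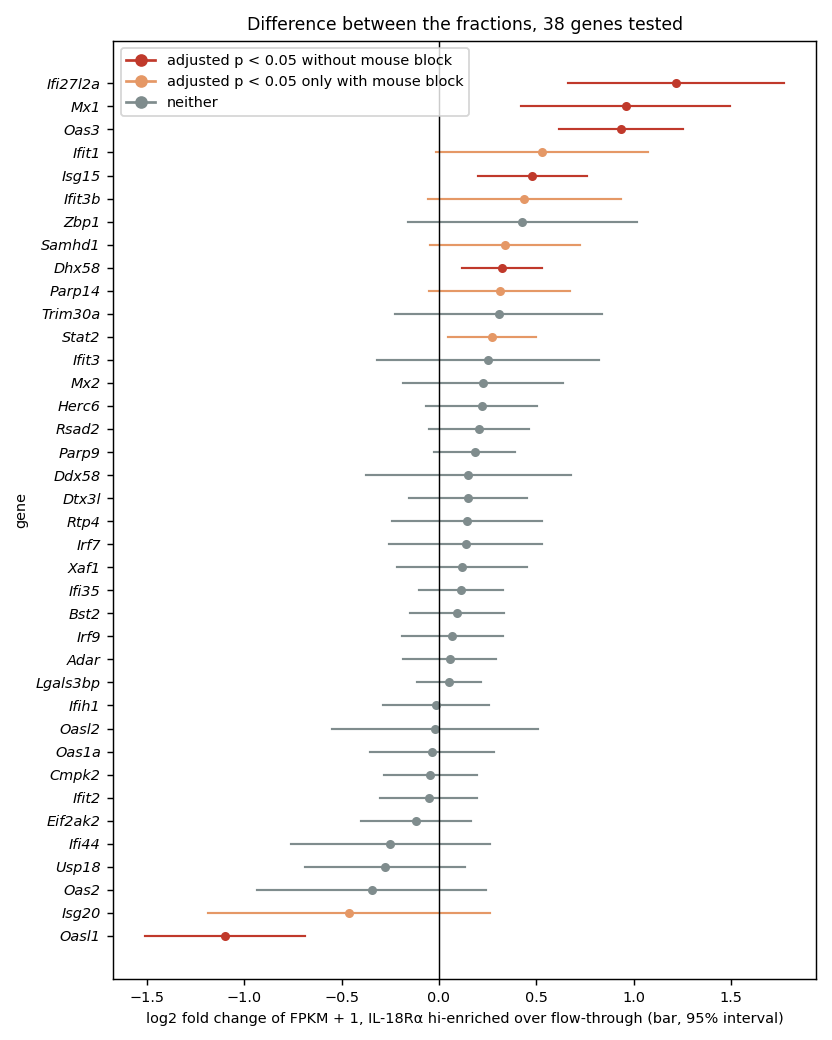
Log2 fold change of FPKM + 1 between IL-18Rαhi-enriched cells and flow-through for the 38 genes tested, with 95% intervals from limma without the mouse block. Genes called without the block are red, genes called only with it are orange and the others are gray. The values run from -1.10 for Oasl1 to 1.22 for Ifi27l2a, and most intervals cross 0.

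Marker genes of several cell types differed between the fractions, and all marker lists are given once here. Of all genes tested, 14.1% were called higher and 13.7% lower, and 22.2% and 22.7% with the block. The summed FPKM of 8 CD8 T-cell identity genes (Cd3d, Cd8a and others, none at 0) was 1458 to 2736 in FT and 2708 to 2933 in the enriched cells, and FT of mouse 1 was the lowest. The summed FPKM of 6 conventional dendritic cell markers was 14.6 to 25.3 in FT and 34.9 to 74.9 in the enriched cells, with 5 of 6 called higher in either fit. The 8 macrophage and monocyte markers gave 114 to 389 and 374 to 877 FPKM, with 4 of 7 tested called higher (6 with the block), and the 5 NK-cell markers gave 12.1 to 22.7 and 32.7 to 75.6 FPKM, with 3 of 4 tested called higher in either fit. The authors list Ncr1 and Klrb1c, both among these NK-cell markers, as receptor genes upregulated in the IL-18Rαhi-enriched T cells. The 6 markers of plasmacytoid dendritic cells, known as strong producers of type I interferon, gave 20.6 to 28.4 and 20.2 to 30.02 FPKM, with 1 of 5 tested called higher (3 with the block). The 9 erythroid genes gave 896 to 2796 FPKM in FT, with the highest value in mouse 1, and 221 to 1536 FPKM in the enriched cells, with 2 of 9 called lower (6 with the block). Of the sums so far, only those of conventional dendritic cell and NK-cell markers did not overlap between the fractions. Ranges of the other lists overlapped between the fractions: 638 to 1324 and 780 to 902 FPKM for 7 naive T-cell genes (3 of 7 called lower, 4 with the block), 393 to 2270 and 421 to 2707 FPKM for 8 neutrophil genes (0 of 8 called in limma, 0 at an unadjusted p under 0.05, and 2 higher and 1 lower with the block), 24.4 to 62.9 and 40.4 to 81.9 FPKM for 6 B-cell genes (1 of 5 tested called higher, 2 with the block), and 290 to 1225 and 523 to 1458 FPKM for 4 plasma-cell genes (0 of 4 called in limma, 1 at an unadjusted p under 0.05, and 4 higher with the block). No marker of these lists was at 0 in all libraries. Their part in the differences of the interferon-stimulated genes was not tested, and in these bulk samples a change in the number of cells of a type and a change in RNA per cell cannot be told apart.

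The signal transducers Stat2, Irf9 and Irf7 differed little. Stat2, a subunit of ISGF3, was at 12.4, 14.2, 13.5 and 15.9 FPKM in FT of mice 1 to 4 and at 15.0, 16.9, 17.7 and 18.8 FPKM in their enriched cells. It was higher in the enriched cells of every mouse, but the fractions overlapped (log2 fold change 0.27, SE 0.10, adjusted p = 0.073, and 0.0178 with the mouse block). Scaled to T-cell identity genes, Stat2 was at a log2 fold change of -0.03 (adjusted p = 0.941 with the block). Irf9, the DNA-binding subunit of ISGF3, was at 35.7, 48.0, 47.6 and 49.3 FPKM in FT and at 43.4, 46.0, 47.9 and 51.1 FPKM in the enriched cells, and only FT of mouse 1 stood apart (log2 fold change 0.07, SE 0.11, adjusted p = 0.674). Irf7, which amplifies interferon production, was at 41.6, 56.7, 56.9 and 70.9 FPKM in FT and at 47.9, 65.0, 64.6 and 69.7 FPKM in the enriched cells. In both fractions mouse 1 was lowest and mouse 4 highest for Irf7, and the difference between fractions was 0.14 (SE 0.17, adjusted p = 0.577). The gene of Irf7 overlaps Phrf1 on the other strand, and the quantification was run with the default library setting, which does not use strand, so that reads of such overlapping genes cannot be told apart.

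Of the 4 sensors of foreign nucleic acid, Dhx58 was called. Dhx58 encodes LGP2, a helicase that modulates signaling by the RNA sensors RIG-I and MDA5. It was at 12.4, 14.0, 11.6 and 14.6 FPKM in FT (mean 13.1 ± 1.37 SD, n = 4) and at 15.4, 17.0, 16.8 and 17.4 FPKM in the enriched cells (mean 16.6 ± 0.869). The fractions did not overlap (log2 fold change 0.32, SE 0.09, adjusted p = 0.0286), although the call was lost without FT of mouse 3 or without the enriched cells of mouse 2, 3 or 4 (lowest log2 fold change 0.27, highest adjusted p = 0.0808). Scaled to T-cell identity genes, the log2 fold change of Dhx58 was 0.024 (adjusted p = 0.928). Dhx58 (chromosome 11, 100694884 to 100704271, minus strand) overlaps Dhx58os on the other strand. Zbp1, a sensor of Z-form nucleic acid that can start necroptosis, was at 25.4, 57.2, 53.0 and 63.9 FPKM in FT and at 57.2, 66.9, 63.1 and 68.8 FPKM in the enriched cells. Zbp1 was higher in the enriched cells of all 4 mice, most of all in mouse 1, and did not pass the test (log2 fold change 0.43, SE 0.26, adjusted p = 0.24, and 0.0797 with the block). Ddx58 (RIG-I) ranged from 15.5 to 33.3 FPKM and Ifih1 (MDA5) from 7.03 to 9.64 FPKM over the 8 libraries, and their log2 fold changes were 0.15 (SE 0.23) and -0.02 (SE 0.12). The sign of both changed when single libraries were left out.

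The IFIT proteins bind viral RNA and hold back its translation, and their genes lie side by side on chromosome 19. Ifit1 was at 3.23, 7.26, 6.73 and 8.45 FPKM in FT and at 7.61, 9.04, 9.95 and 10.7 FPKM in the enriched cells. It was higher in the enriched cells of each mouse while the fractions overlapped, and it was called only with the block (log2 fold change 0.53, SE 0.24, adjusted p = 0.129, and 0.0192 with the block). Scaled to T-cell identity genes, Ifit1 was at 0.26 and not called with the block (adjusted p = 0.425). Ifit3b was at 0.759, 1.93, 2.14 and 2.33 FPKM in FT and at 1.96, 2.91, 2.76 and 3.18 FPKM in the enriched cells. Ifit3b also was higher in every mouse and called only with the block (log2 fold change 0.44, SE 0.22, adjusted p = 0.164, and 0.0252 with the block), and was at 0.25 after that scaling (adjusted p = 0.384 with the block). Ifit3 ranged from 6.22 to 16.0 FPKM and Ifit2 from 6.06 to 8.37 FPKM, with log2 fold changes of 0.25 (SE 0.25) and -0.05 (SE 0.11). Of the 100-base words in Ifit3 transcripts, 31.7% occur in Ifit3b, and 27.4% the other way, so that the division of reads between these genes is uncertain. FT of mouse 1 was the lowest library for all 4 genes. Without both libraries of mouse 1, an alternative chosen after seeing the data, Ifit1 passed the test at a log2 fold change of 0.37 (adjusted p = 0.0468) and Ifit3b did not (adjusted p = 0.0669).

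The members of the OAS family moved in different directions. The synthetases Oas1a, Oas1g, Oas2 and Oas3 make oligoadenylates that activate RNase L when they meet double-stranded RNA, and their genes lie together on chromosome 5. Oasl1 and Oasl2, elsewhere on chromosome 5, encode OAS-like proteins, and mouse OASL1 is known to restrain the translation of Irf7 mRNA. Oas3 was at 12.9, 19.3, 20.2 and 20.5 FPKM in FT (mean 18.2 ± 3.60) and at 35.7, 34.4, 36.2 and 34.5 FPKM in the enriched cells (mean 35.2 ± 0.905). The lowest enriched library lay well above the highest FT library (log2 fold change 0.93, SE 0.14, adjusted p = 0.00296), and the call held when any library was left out (0.78 to 1.00, highest adjusted p = 0.0126). Oas3 occupies 120753098 to 120777661 of chromosome 5 on the minus strand.

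Oasl1 was at 13.3, 7.27, 9.71 and 10.2 FPKM in FT (mean 10.1 ± 2.46) and at 4.84, 3.49, 4.84 and 3.38 FPKM in the enriched cells (mean 4.14 ± 0.815). It fell in every mouse with no overlap between the fractions (log2 fold change -1.10, SE 0.18, adjusted p = 0.00412), and was called lower in every alternative run. Oasl1 (chromosome 5, 114923240 to 114937915, plus strand) overlaps Gm13822 on the other strand. Its neighbour Oasl2, with which it shares 0 words of 100 bases, ranged from 4.61 to 9.25 FPKM and showed a log2 fold change of -0.02 (SE 0.23, adjusted p = 0.957).

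Oas2 ranged from 2.29 to 6.63 FPKM in FT and from 2.64 to 4.04 FPKM in the enriched cells (log2 fold change -0.35, SE 0.26, adjusted p = 0.34). Oas2 was lower in the enriched cells of mice 2, 3 and 4 and slightly higher in mouse 1. It was called lower without FT of mouse 1 (-0.61, adjusted p = 0.0146) and without both libraries of mouse 1 (-0.51, adjusted p = 0.0134). Oas1a ranged from 10.7 to 15.8 FPKM and differed by a log2 fold change of -0.04 (SE 0.14), and Oas1g, from 0.22 to 1.97 FPKM, was not tested. Of the words in Oas1a transcripts, 40.9% occur in Oas1g, and their values are uncertain to that extent.

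Ratios within a library do not depend on its total. They were taken for 9 pairs of related genes whose values were already known, and their direction depends on which gene is divided by which. The ratio of Oas3 to Oas2 FPKM was 5.62, 3.39, 3.68 and 3.09 in FT and 13.5, 9.59, 9.10 and 8.53 in the enriched cells. Oas3 to Oas1a was 1.36 ± 0.275 in FT and 2.75 ± 0.567 in the enriched cells, and Oasl2 to Oasl1 was 0.823 ± 0.332 and 1.94 ± 0.719. All 3 of these ratios were higher in the enriched cells of every mouse. Cmpk2 to Rsad2 was 5.30 ± 0.344 in FT and 4.29 ± 0.496 in the enriched cells, and Ifit3 to Ifit3b was 6.81 ± 0.992 and 5.08 ± 0.218, both lower in the enriched cells of every mouse. The ratio of Parp9 to Dtx3l, which lie head to head on chromosome 16, was 1.23 ± 0.112 in FT and 1.26 ± 0.101 in the enriched cells. These genes overlap on opposite strands, so that reads from the overlap cannot be told apart.

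**Figure D3:**
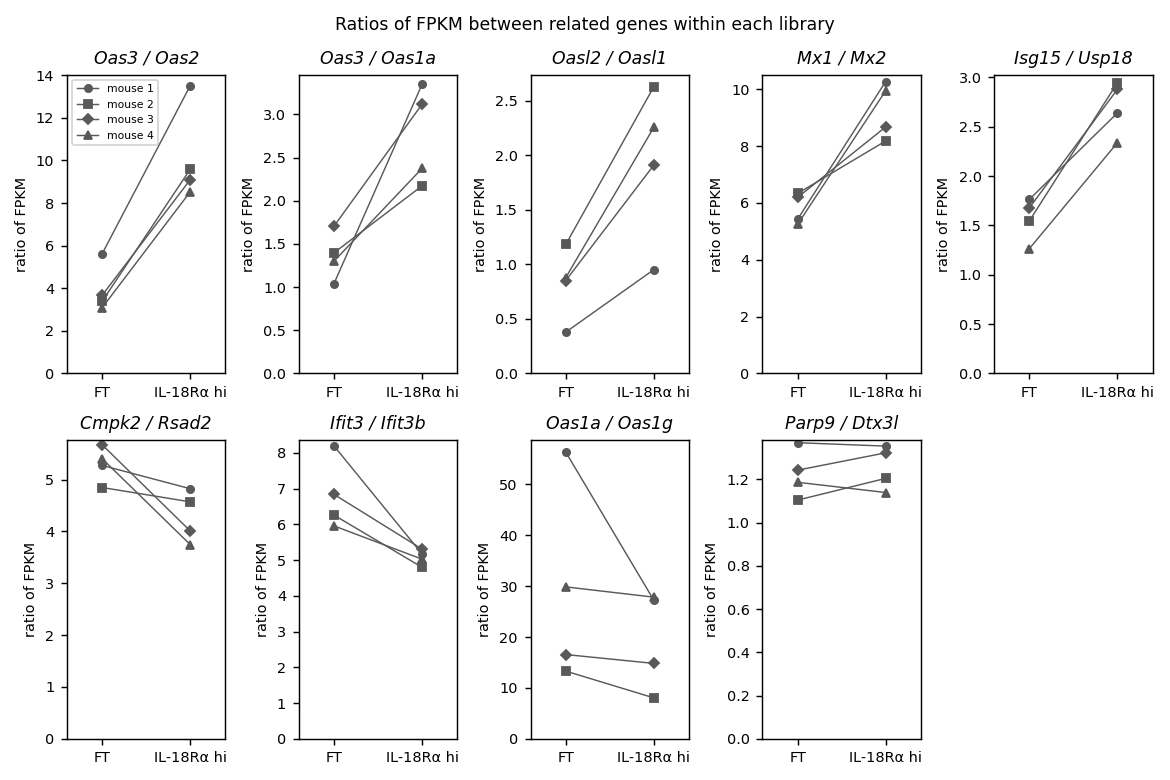
Ratios of FPKM between related genes within each library, by fraction (FT, flow-through) on the x axis. Each line joins the 2 fractions of 1 mouse, and each y axis starts at 0. Of the 9 ratios, 5 were higher and 3 lower in the enriched cells of all 4 mice, and Parp9 to Dtx3l was higher in 2 of 4. Each of the 5 higher ratios holds a gene called in limma and is no separate result. The ratios of Ifit3 to Ifit3b and of Oas1a to Oas1g are between genes that share sequence, so that their values are uncertain.

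In the ISG15 system, the modifier was called higher, other than after scaling to T-cell identity genes, and the enzyme that removes it was not called. Isg15 encodes a ubiquitin-like protein that is joined to viral and host proteins. It was at 19.4, 23.3, 26.7 and 27.6 FPKM in FT (mean 24.3 ± 3.72) and at 29.6, 36.3, 36.5 and 33.9 FPKM in the enriched cells (mean 34.1 ± 3.21). The fractions did not overlap (log2 fold change 0.48, SE 0.12, adjusted p = 0.0221), but without the enriched cells of mouse 2, 3 or 4 the call was lost (highest adjusted p = 0.0655). Isg15 occupies 156199424 to 156200818 of chromosome 4 on the minus strand. Usp18, the ISG15 protease that also blocks signaling at IFNAR2, ranged from 11.01 to 21.8 FPKM in FT and from 11.2 to 14.5 FPKM in the enriched cells, a log2 fold change of -0.28 (SE 0.18, adjusted p = 0.274). Usp18 was called lower with the block once both libraries of mouse 1 were left out (-0.38, adjusted p = 0.0162). The ratio of Isg15 to Usp18 was 1.56 ± 0.218 in FT and 2.70 ± 0.275 in the enriched cells. Herc6, the mouse ligase that attaches ISG15, ranged from 10.4 to 16.3 FPKM and showed a log2 fold change of 0.22 (SE 0.13, adjusted p = 0.22).

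Among 10 restriction factors and enzymes that act on nucleic acids, Mx1 was called higher. Mx1 encodes a dynamin-like GTPase that blocks influenza virus, although most inbred strains, C57BL/6 among them, carry an allele that lacks coding exons and makes no working protein. It was at 5.15, 11.2, 10.2 and 11.7 FPKM in FT (mean 9.55 ± 3.00) and at 15.0, 18.9, 18.9 and 22.9 FPKM in the enriched cells (mean 18.9 ± 3.23). The lowest enriched library, mouse 1, was above the highest FT library, mouse 4 (log2 fold change 0.96, SE 0.24, adjusted p = 0.0187). The call was lost without the enriched cells of mouse 2 or mouse 4 (highest adjusted p = 0.0561). Mx1 occupies 97447035 to 97462907 of chromosome 16 on the minus strand. Its relative Mx2, annotated in GENCODE M21 as a polymorphic pseudogene, ranged from 0.95 to 2.31 FPKM and showed a log2 fold change of 0.23 (SE 0.18, adjusted p = 0.373), and 0.929% of the words in Mx1 occur in Mx2. The ratio of Mx1 to Mx2 was 5.80 ± 0.543 in FT and 9.26 ± 0.999 in the enriched cells.

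Isg20, an RNA exonuclease, was at 80.8, 30.4, 51.5 and 35.2 FPKM in FT and at 47.9, 25.0, 37.3 and 27.0 FPKM in the enriched cells. Isg20 was lower in the enriched cells of all 4 mice, and in each fraction mouse 1 was the highest and mouse 2 the lowest. The spread between mice was larger than the difference between fractions (log2 fold change -0.46, SE 0.32, adjusted p = 0.303), and with the block Isg20 was called lower (adjusted p = 0.00684). Samhd1, which degrades deoxynucleotides, was at 106, 172, 151 and 178 FPKM in FT and at 163, 196, 183 and 215 FPKM in the enriched cells. Samhd1 was higher in each mouse while the fractions overlapped (log2 fold change 0.34, SE 0.17, adjusted p = 0.164, and 0.0175 with the block), and after scaling to T-cell identity genes it was at 0.023 (adjusted p = 0.946 with the block). Bst2, or tetherin, which holds budding virions at the cell surface, was at 85.4, 115, 108 and 108 FPKM in FT and at 99.2, 114, 112 and 117 FPKM in the enriched cells. For Bst2 the fractions overlapped, with the lowest library in FT and the highest in the enriched cells (log2 fold change 0.09, SE 0.11, adjusted p = 0.544).

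The other genes of this group did not pass the test in either fit. Rsad2 (viperin) and Cmpk2, neighbours on chromosome 12, ranged from 2.90 to 4.26 FPKM and from 15.4 to 20.6 FPKM, with log2 fold changes of 0.21 (SE 0.11) and -0.04 (SE 0.10). Eif2ak2 (the kinase PKR) ranged from 10.1 to 15.3 FPKM, Adar, which edits double-stranded RNA, from 32.4 to 43.5 FPKM, and Trim30a from 21.8 to 52.9 FPKM. Their log2 fold changes were -0.12 (SE 0.12), 0.06 (SE 0.10) and 0.31 (SE 0.23).

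Parp9 and Dtx3l, which act together as an ADP-ribosylating ubiquitin ligase complex, and Parp14 lie close to each other on chromosome 16. Parp14 was at 9.51, 15.2, 14.3 and 15.9 FPKM in FT and at 14.6, 16.9, 19.1 and 17.7 FPKM in the enriched cells. It was higher in each mouse and was called only with the block (log2 fold change 0.31, SE 0.16, adjusted p = 0.172, and 0.0349 with the block), and not with the block once both libraries of mouse 1 were left out (0.23, adjusted p = 0.0744) or FPKM were scaled to T-cell identity genes (0.015, adjusted p = 0.969). Parp9 ranged from 23.6 to 34.3 FPKM and Dtx3l from 17.2 to 27.3 FPKM, with log2 fold changes of 0.18 (SE 0.09, adjusted p = 0.162) and 0.15 (SE 0.13, adjusted p = 0.431). Parp9 and Dtx3l overlap on opposite strands, and reads from the overlap cannot be told apart.

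The remaining interferon-induced genes held the most abundant gene of the 39. Ifi27l2a encodes a small hydrophobic protein of the ISG12 family. It was at 164, 369, 241 and 360 FPKM in FT (mean 284 ± 98.7) and at 585, 707, 647 and 581 FPKM in the enriched cells (mean 630 ± 59.5). The lowest enriched library was well above the highest FT library (log2 fold change 1.22, SE 0.24, adjusted p = 0.00875), and the call held when any library was left out (0.98 to 1.37, highest adjusted p = 0.0306). Ifi27l2a occupies 103442167 to 103443680 of chromosome 12 on the minus strand, and its longest transcript is 463 bases, a length at which FPKM depends strongly on how fragment size is modelled.

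Lgals3bp, a secreted glycoprotein that binds galectin-3, was at 137, 118, 120 and 120 FPKM in FT and at 128, 130, 130 and 122 FPKM in the enriched cells. Lgals3bp was among the most even of the genes (log2 fold change 0.05, SE 0.07, adjusted p = 0.63), and its FT library of mouse 1 was the highest of the 8. Ifi35 was at 40.5, 46.2, 48.5 and 51.7 FPKM in FT and at 45.5, 51.4, 50.6 and 55.0 FPKM in the enriched cells, higher in each mouse and not called (log2 fold change 0.12, SE 0.09, adjusted p = 0.389). Xaf1 ranged from 21.4 to 34.3 FPKM and Rtp4 from 11.5 to 21.3 FPKM, with log2 fold changes of 0.12 (SE 0.15) and 0.15 (SE 0.17). Ifi44 ranged from 0.895 to 1.99 FPKM in FT and from 0.489 to 1.67 FPKM in the enriched cells, lower in each of the 4 mice and not called in either fit (log2 fold change -0.25, SE 0.22, adjusted p = 0.433, and 0.11 with the block).

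**Figure D4:**
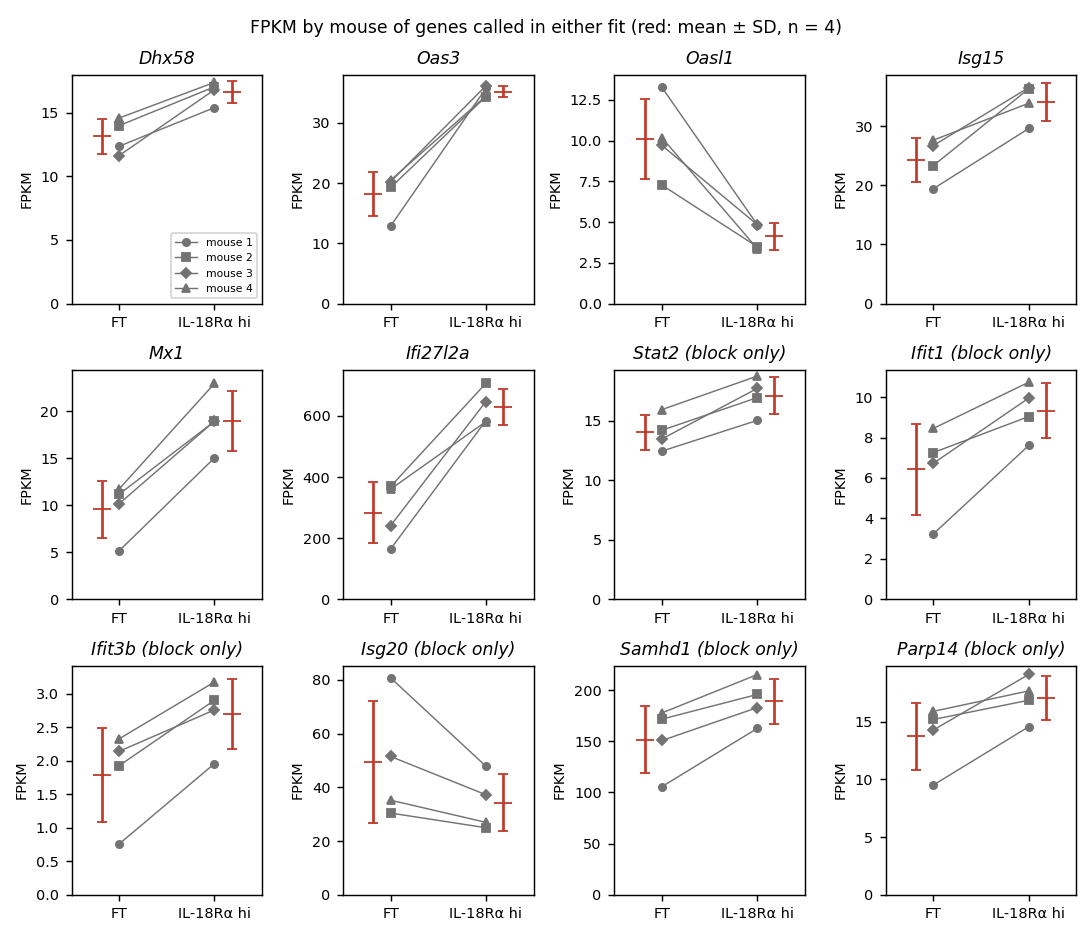
FPKM of the 12 genes called without the mouse block (the first 6 panels in reading order) or only with it (the last 6), by fraction. Gray lines join the 2 fractions of each mouse, red marks give the mean ± SD (n = 4), and each y axis starts at 0. Oasl1 and Isg20 are lower in the enriched cells of all 4 mice and the other 10 genes are higher in all 4.

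Many of the genes shared an order of mice, which was not separate from the difference between fractions. The mean deviation of the 39 genes from the 8-library mean was -0.378 in FT of mouse 1 and -0.097 in its enriched cells, on the log2 scale. Mouse 1 also had the largest median difference between fractions (0.28). Mouse 1 had the lowest value in both fractions for 24 of the 38 genes (63.2%), compared with 25.9% of all genes tested. Mouse 4 had the highest value in both fractions for 15 of the 38 genes (39.5%), compared with 12.4% of all genes tested. Cmpk2, Isg20 and Oasl1 were instead highest in mouse 1 in both fractions (7.89% of the 38 genes, compared with 18.5% of all genes tested). For Oasl1 the enriched cells of mouse 1 and mouse 3 were nearly equal (4.8424 and 4.8422 FPKM). FT of mouse 1 was the lowest of the 8 libraries for 27 of the 39 genes, a kind of count for which no share of all genes was taken. This library was also the lowest for the T-cell identity genes, at -0.77 on the log2 scale from the mean of the 8 libraries, and the highest for the erythroid genes. The enriched cells of mouse 1 were the lowest of their fraction for 30 of the 39 genes, again with no share of all genes taken. They were at 0.22 for the T-cell identity genes, the highest of their fraction for the summed erythroid genes (1536 FPKM, the others 221 to 644), and the lowest of it for the summed markers of conventional dendritic cells, macrophages, plasmacytoid dendritic cells, neutrophils, NK cells, B cells and plasma cells. The part of cell makeup in this pattern was not tested.

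**Figure D5:**
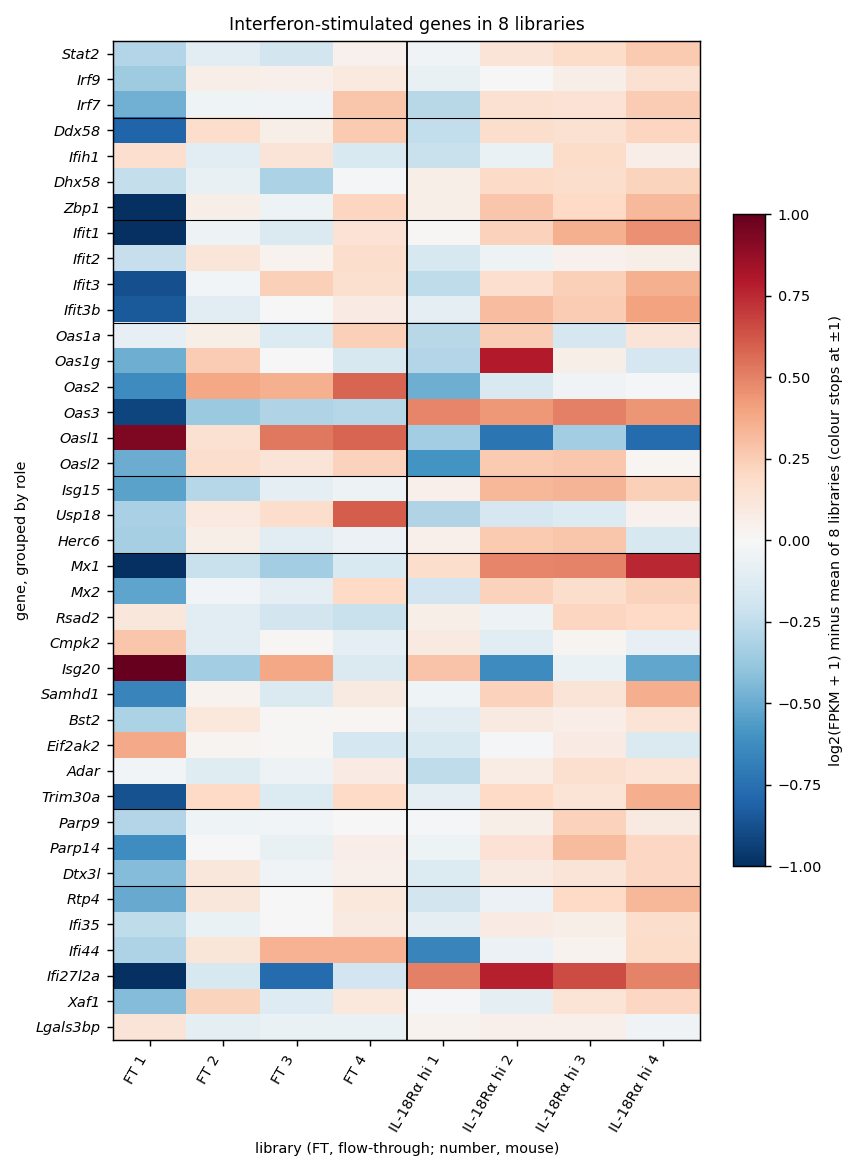
Log2(FPKM + 1) of the 39 genes in each library minus the mean of the 8 libraries, with genes in rows grouped by role and libraries in columns (FT, flow-through; the number is the mouse). The vertical line parts the fractions and the colors stop at ±1. FT of mouse 1 is the lowest library for 27 of the 39 genes, a count for which no share of all genes was taken.

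Because the T-cell identity genes were lower in FT of mouse 1, FPKM were also scaled to their mean in each library. That scaling divides each library by a single factor and so shifts all genes nearly alike. It moved the median over all genes to -0.30 on the log2 scale and that of the 38 genes to -0.16. The distance between these medians could hardly change under it and is no separate result. Ifi27l2a (0.90, adjusted p = 0.00854), Mx1 (0.67, adjusted p = 0.0381) and Oas3 (0.63, adjusted p = 0.0255) were still called higher and Oasl1 lower (-1.38, adjusted p = 0.0221). Isg15 (0.17, adjusted p = 0.476) and Dhx58 (0.02, adjusted p = 0.928) were no longer called, 11 of the 38 log2 fold changes were above 0, and with the block Oas3 was not called (adjusted p = 0.0604). No share of all genes was taken for the 11. Of all calls, 50.8% were higher in the enriched cells without this scaling, 38.5% with it and 24.0% with it and the block. The share of all genes tested that was called higher fell from 14.1% to 4.54% with this scaling, and was 5.47% with it and the block. In the same order, 13.7%, 7.24% and 17.3% were called lower.

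The pathway around these genes was read from a list of 92 ligands, receptors, inducers, inhibitors and other targets, of which 88 were in the table and 65 were tested. Of these, 10 were called higher (15.4%) and 4 lower (6.15%), beside 14.1% and 13.7% of all genes tested. With the block the counts were 19 and 8, in a fit that called 22.2% of all genes tested higher and 22.7% lower. Of the 21 interferon genes only Ifng was tested. The type I and III interferon genes were listed at 0 in all libraries, except Ifna13, Ifnab and Ifnz, which stayed at or under 0.229 FPKM. Ifng, which encodes interferon-γ, was at 6.03, 12.3, 7.12 and 9.96 FPKM in FT and at 21.4, 22.8, 20.5 and 30.1 FPKM in the enriched cells. Ifng rose in every mouse without overlap (log2 fold change 1.35, SE 0.21, adjusted p = 0.00347).

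The receptor chains Ifnar1 (27.6 ± 5.30 FPKM in FT and 30.2 ± 2.16 FPKM in the enriched cells) and Ifnar2 (40.0 ± 6.37 and 46.4 ± 1.60 FPKM) did not pass the test, with log2 fold changes of 0.14 (SE 0.14) and 0.22 (SE 0.11). Tyk2, a kinase of the receptor that is named here after its values were seen, was higher, at 25.7 ± 2.04 FPKM in FT and 33.7 ± 3.36 FPKM in the enriched cells (log2 fold change 0.38, SE 0.10, adjusted p = 0.0208). With the block Ifngr2, also named after its values were seen, was called lower (-0.35, SE 0.24, adjusted p = 0.298, and 0.0489 with the block).

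Among the inducers of interferon, 5 of 13 tested were called higher (38.5%) and 0 lower in limma, beside 14.1% and 13.7% of all genes tested. An unadjusted p under 0.05 was reached by 7. With the block 7 were higher and 1 lower, beside 22.2% and 22.7% of all genes tested. The lower gene was Ikbke, named after its values were seen (log2 fold change -0.46, SE 0.20, adjusted p = 0.126, and 0.0128 with the block). The largest changes were those of the transcription factor Irf5 (10.99 ± 3.89 FPKM in FT and 27.6 ± 7.54 FPKM in the enriched cells, log2 fold change 1.28, SE 0.28), and of the endosomal sensors Tlr3 (0.602 ± 0.340 and 2.82 ± 1.09 FPKM, 1.23, SE 0.26) and Tlr9 (1.28 ± 0.471 and 3.53 ± 1.34 FPKM, 0.96, SE 0.25). These 3 genes are well known in dendritic cells and macrophages, whose markers were also higher in the enriched cells as given above, and the part of those cells was not tested. Among 38 tested other interferon targets, 3 were called higher (7.89%) and 4 lower (10.5%), both shares below those of all genes tested. With the block the counts were 9 and 5. Phf11b (19.6 ± 6.05 and 42.4 ± 1.07 FPKM, log2 fold change 1.13, SE 0.22), Ifi204 (2.20 ± 0.973 and 5.14 ± 1.42 FPKM, 0.97, SE 0.27) and Nmi (48.6 ± 9.55 and 68.1 ± 2.99 FPKM, 0.50, SE 0.14) were higher. Lgals9, which encodes galectin-9 (189 ± 23.5 and 121 ± 6.50 FPKM, log2 fold change -0.63, SE 0.10), and Pnpt1, which encodes a mitochondrial polyribonucleotide nucleotidyltransferase (31.0 ± 5.85 and 20.9 ± 2.16 FPKM, -0.53, SE 0.14), were lower. None of the 6 feedback inhibitors tested was called without the block in limma, 1 of them had an unadjusted p under 0.05, and with the block 1 was higher and 1 lower.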

How the data were processed

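Polyadenylated RNA was sequenced as stranded libraries of 150 bp paired ends. Per the labels, the authors mapped reads to mm10 with TopHat and estimated expression with Cufflinks 2.1.1; the deposited FPKM values, 1 column per library, are divided by transcript length and library total, and no counts were used here, so that depth could only be estimated. The authors applied corrections for multi-mapped reads and fragment bias and kept other settings at their defaults.

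FPKM were analysed as log2(FPKM + 1) with limma 3.58.1 (R 4.3.3; the pseudocount of 1 understates the change of low genes; lmFit and eBayes with trend, two-sided, without a block) over the 12166 genes that reached 1 FPKM on average over the 8 libraries, and p-values were adjusted over all of these by Benjamini-Hochberg (threshold 0.05). The SE, interval and fold change of each gene come from this fit. Per the labels both fractions come from each mouse, and the samples were paired by number. The deviations of same-numbered libraries from their group means correlated at 0.66, 0.59, 0.31 and 0.47. For each FT library this was its highest correlation with an enriched library. However, FT of mouse 2 and the enriched cells of mouse 4 correlated at 0.41, above the 0.31 of mouse 3. The fit with the mouse as a block is printed where it changes a call of a named gene or a count. Without the block, each p sets the difference against the spread of libraries within the fractions and ignores the pairing by mouse. With the block, it is set against the spread of the within-mouse differences over 4 mice. Both spreads are moderated by eBayes. The test was checked on simulated data.

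The 39 genes and all lists were chosen with earlier results of these data known. Every one of the 39 genes is named; values per library are given for genes called in either fit and for the 8 highest in mean FPKM. Of the pathway list, Ifnar1, Ifnar2, Ifng and up to 8 called genes with the largest change are named, and 1 further gene of the rule is not reported here; Irf8, Ifi208, Ifi209 and Ifi213 are not analysed here. Positions and overlaps are from GENCODE M21 (GRCm38.p6), in which all 39 identifiers were found and 13 of the genes overlap a gene on the other strand. Promoters are from RefSeq (GRCm38.p6). Alternatives were another pseudocount, other filters and scalings, no variance trend, the mouse block and leaving out libraries.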

Additional observations from a re-analysis of the deposited data

Results flagged for a closer look

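In 5 of 78 gene and fraction combinations, 1 library stood apart from the other 3 of its fraction by Dixon's test at the 95% level, where chance flags about 1 in 20 groups, or 3.9 of 78. FT of mouse 1 was the low library for Irf9 (35.7 FPKM, the others 47.6 to 49.3), Oas3 (12.9 FPKM, the others 19.3 to 20.5) and Parp9 (23.6 FPKM, the others 28.3 to 29.1), and the high library for Lgals3bp (137 FPKM, the others 118 to 120). The enriched cells of mouse 1 were the low library for Mx2 (1.46 FPKM, the others 2.18 to 2.31). The 5 flags fall on 2 libraries, both from mouse 1. Without FT of mouse 1, Oas3 was still called higher, at a log2 fold change of 0.78 (adjusted p = 0.000234).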

How the results depend on the processing

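The 5 genes called higher became 10 with the replicate block, 3 with T-cell identity scaling, 2 with that scaling and the replicate block, and 8 without both libraries of mouse 1 with the replicate block; leaving out 1 library gave 2 to 6. The 1 gene called lower became 2 with the block, 2 with that scaling and block, 2 without mouse 1 and 4 without mouse 1 with the block (1 to 2 with 1 library left out). Of all genes tested, 14.1% were called higher at first, 22.2% with the block, 4.54% with T-cell identity scaling and 5.47% with both. In the same order, 13.7%, 22.7%, 7.24% and 17.3% were called lower. Without mouse 1 the shares were 14.7% and 12.8% (20.7% and 20.3% with the block), and with no filter 7.32% and 5.63%. With 1 library left out they were 9.24% to 14.8% higher and 7.73% to 14.6% lower. The block changed no call of the 39 genes other than those named in the report. Pathway genes called higher, 10 at first, were 6 with no filter on low values, 19 with the block, 4 with T-cell identity scaling, 6 with that scaling and block and 16 without mouse 1 with the block (5 to 13 with 1 library left out); those called lower, 4 at first, were 8 with the block and 10 without mouse 1, with or without the block (1 to 10 with 1 library left out). The median log2 fold change was -0.156 with T-cell identity scaling, with and without the block. Under that scaling the log2 fold change turned negative for Stat2 (-0.029), Irf9 (-0.24), Irf7 (-0.17), Ddx58 (-0.15), Ifit3 (-0.035), Herc6 (-0.077), Rsad2 (-0.056), Bst2 (-0.22), Adar (-0.26), Trim30a (-0.0021), Parp9 (-0.12), Dtx3l (-0.16), Rtp4 (-0.15), Ifi35 (-0.20), Xaf1 (-0.19), Lgals3bp (-0.27), Ifnar1 (-0.17) and Ifnar2 (-0.088). Quantile normalization turned Lgals3bp (-0.013). Leaving out both libraries of mouse 1, with and without the block, turned Irf9 (-0.00025), Ifih1 (0.11), Oas1a (0.014), Oasl2 (0.0072), Cmpk2 (0.0053) and Eif2ak2 (0.019). With 1 library left out, the range crossed 0 for Irf9 (-0.037 to 0.11), Ddx58 (-0.091 to 0.26), Ifih1 (-0.082 to 0.054), Oas1a (-0.13 to 0.049), Oasl2 (-0.19 to 0.18), Cmpk2 (-0.088 to 0.043) and Xaf1 (-0.0060 to 0.21). None of these genes but Stat2 was called in any fit without T-cell identity scaling, and the cause of the changes was not tested. With a pseudocount of 0.1, a mean of at least 5 FPKM, median-of-ratios scaling or no variance trend, the counts of 5 and 1 did not change. Over the named genes and all alternatives, 816 of the values kept their direction and side of the threshold, 44 lost and 18 gained a call, and 64 turned sign.

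The depth, estimated at 15000000 to 18000000 fragments, limits the low genes Oas1g, Ifi44, Mx2 and Ifit3b most. The median log2 fold change of the 38 genes was 0.046 to 0.22 with 1 library left out.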
